A study of Mus musculus with 13 samples.

Results

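The mouse genome carries olfactory receptor genes (symbols beginning with Olfr) in clusters on most of its chromosomes, and Chromosome 7 holds 240 protein-coding ones in GENCODE vM1. They were taken as all such symbols on Chromosome 7 of the mm9 assembly, out of 22329 protein-coding genes that could be placed on the calls, and each was given the call of the fragment end nearest to the midpoint of its longest transcript. Genes under 500 kb apart were counted as 1 cluster, which gave 8 clusters, numbered here along the chromosome from the centromere. All 240 were found in RefSeq, which lists 7 of them as pseudogenes. By the receptor family names given there 127 belonged to class I and 109 to class II, and 4 (Olfr596, Olfr652, Olfr681 and Olfr687) had no family name. Olfr605 was counted as class I but also carries a class II family name, MOR202, under which the count of families below places it.

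The study used satellite 4C (sat4C), which ligates and sequences the DNA found close to pericentromeric major satellite repeats in crosslinked nuclei, to call each 4C fragment end as part of a pericentromere-associated domain (PAD) or of a non-PAD. The cells were untreated: IB10 mouse embryonic stem cells (ESCs, strain 129/ola), neural precursor cells (NPCs) derived from these ESCs, astrocytes (ACs) derived from the NPCs, and whole thymus tissue of adult male C57BL/6 mice. There were 3 ESC, 2 NPC and 2 AC replicates and 3 thymus replicates sequenced on 2 instruments, and the file analysed here holds 1 consensus call per fragment end and cell type, over 399232 fragment ends. Thymus differs from the cultured cells in strain, source and read sets at once, so these cannot be told apart, and the 3 cultured populations come from 1 stem cell line.

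With 1 call per cell type there was no replicate error and no test between cell types, so every count below is a description, set against the share of all 22329 genes with the same call. Read counts per fragment end were not analysed here, and a call does not say in what share of the cells the contact occurs. Neighboring genes lie in the same domains, and the 240 genes lay on only 214 different fragment ends, so they are not independent of each other.

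Olfactory receptors are G protein-coupled receptors of the sensory neurons of the nose. Each mature neuron expresses 1 allele of 1 receptor gene out of the whole repertoire, and the other receptor genes are kept in heterochromatin. Class I receptors, related to those of fish, lie almost without exception in a single cluster on mouse Chromosome 7, while class II receptors are spread over many chromosomes. Stem cells, neural precursors, astrocytes and thymocytes are not olfactory neurons, and receptor genes are generally silent outside the nose apart from a small number of receptors used by other tissues.

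In each cell type taken alone, most of the receptor genes of Chromosome 7 lay in PADs. In ESCs 209 of 240 (87.1%) were PAD, against 46.5% of all genes, and in NPCs 186 (77.5%), against 68.5%. In ACs 216 (90.0%) were PAD, against 34.9% of all genes, and in thymus 172 (71.7%), against 26.1%. The margin over all genes was smallest in NPCs, where most genes of any kind were called PAD. The 1831 other protein-coding genes of Chromosome 7 were PAD for 54.6% in ESCs and 68.4% in NPCs, and 38.9% in ACs and 23.9% in thymus, so in each cell type a smaller share of them than of the receptor genes was called PAD.

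**Figure D1:**
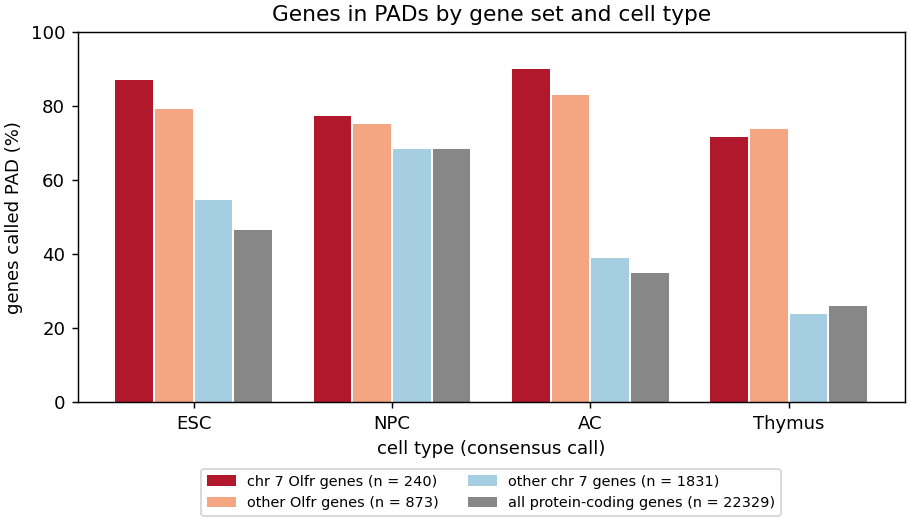
Percent of genes called PAD (y axis) in each cell type (x axis) for the 240 receptor genes of Chromosome 7, the 873 other Olfr genes, the 1831 other genes of Chromosome 7 and all 22329 protein-coding genes. Bars are shares of genes under 1 consensus call and have no error; both sets of receptor genes lie above the other genes in each cell type, least so in NPCs.

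In all 4 cell types together, 117 members (48.8%) were PAD, against 14.8% of all genes. None was non-PAD in all 4, against 20.1% of all genes, and each of the 240 was PAD in at least 1 cell type, against 79.9% of all genes. The other 123 had different calls, 79 of them in the class I cluster and 44 outside it. The most frequent of these patterns was PAD in the 3 cultured populations and non-PAD in thymus, with 53 members (22.1%, against 11.1% of all genes). Next came non-PAD in ESCs and NPCs with PAD in ACs and thymus, with 26 members (10.8%, against 0.914%), which all lay side by side in the class I cluster. The pattern that was most frequent among all genes, PAD in NPCs alone (23.9%), held 0 members.

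Receptor genes on other chromosomes are the nearest comparison. The 873 other Olfr genes were PAD for 79.2% in ESCs and 75.1% in NPCs, and 83.0% in ACs and 73.8% in thymus, 55.0% of them were PAD in all 4 cell types and 8.48% were non-PAD in all 4. By chromosome these shares differed widely. In thymus, 71.7% of the receptor genes of Chromosome 7 were PAD, against 97.9% of the 286 on Chromosome 2, 98.4% of the 129 on Chromosome 9 and 27.2% of the 81 on Chromosome 11. In ACs, 90.0% of those on Chromosome 7 were PAD, against 97.9%, 100% and 55.6% on Chromosomes 2, 9 and 11. Chromosome 7 thus lay between the others in thymus and in ACs.

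Between cell types, the members changed in blocks. From ESCs to NPCs, 1 member (0.417%), Olfr294, was PAD in NPCs and non-PAD in ESCs, against 29.0% of all genes, and 24 members (10.0%) were non-PAD in NPCs and PAD in ESCs, against 7.11%. Of these 24, 20 lay in the class I cluster and 4 in cluster 6. Between NPCs and ACs, 46 members (19.2%) were PAD in ACs and non-PAD in NPCs, against 4.89% of all genes, 42 of them in the class I cluster. Another 16 (6.67%) were non-PAD in ACs and PAD in NPCs, against 38.4% of all genes, with 10 in cluster 3, 4 in cluster 8 and both genes of cluster 4. Against ESCs, 28 members (11.7%) were PAD in ACs and non-PAD in ESCs, against 5.62% of all genes, and 21 (8.75%) were non-PAD in ACs and PAD in ESCs, against 17.2%. Many of the smaller sets lay near borders: without members under 50 kb from a border, those non-PAD in NPCs and PAD in ESCs numbered 7 of 201, and those non-PAD in ACs and PAD in ESCs 8 of 208.

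Thymus differed from each cultured population in more members, mostly toward non-PAD. Among all genes too the differences went mostly toward non-PAD in thymus, and against ESCs and NPCs more one-sidedly than among the members. Between thymus and ESCs, 29 members (12.1%) were PAD in thymus only, against 6.06% of all genes, and 66 (27.5%) were PAD in ESCs only, against 26.5%, a share near that of all genes. Those 66 lay in the class I cluster (40), in cluster 8 (19), in cluster 7 (5) and in cluster 4 (2). Between thymus and NPCs, 45 members (18.8%) were PAD in thymus only, against 7.71% of all genes, and 59 (24.6%) in NPCs only, against 50.1%. Between thymus and ACs, 18 members (7.50%) were PAD in thymus only, against 6.66% of all genes, and 62 (25.8%) in ACs only, against 15.5%. The ESC, NPC and AC comparisons with thymus share the thymus calls.

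**Figure D2:**
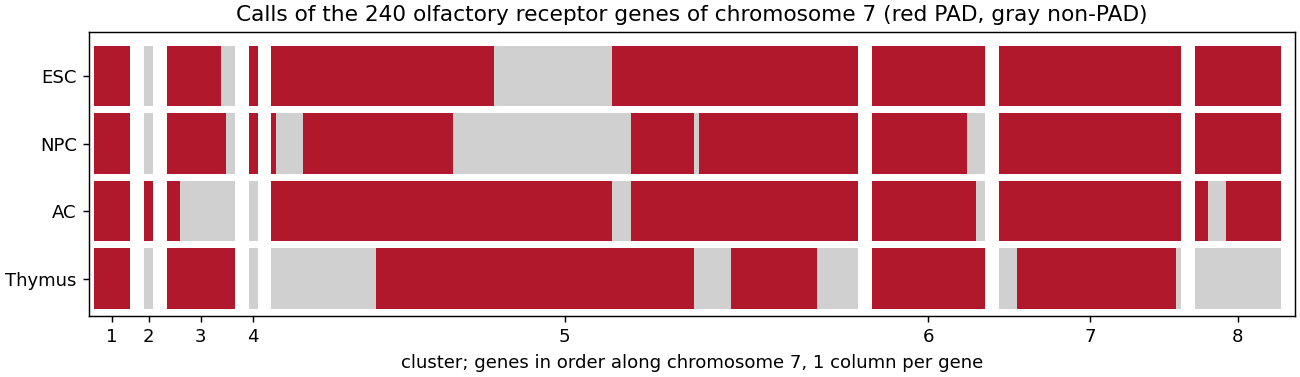
Calls of all 240 genes, 1 column per gene in chromosome order with gaps between the 8 clusters, and 1 row per cell type (red PAD, gray non-PAD). The changed genes form runs: 26 neighboring genes of cluster 5 are gray in ESCs and NPCs, and all 19 genes of cluster 8 are gray in thymus.

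The class I cluster, cluster 5, runs from Olfr543 to Olfr692 (mm9 Chromosome 7, 109625287 to 112517869) and holds 129 members over 2893 kb, with 391 fragment ends and 28 other protein-coding genes. Of its members, 103 were PAD in ESCs and 83 in NPCs, and 125 in ACs and 89 in thymus. PADs covered 84.1% of its span in ESCs and 66.4% in NPCs, and 89.3% in ACs and 71.7% in thymus, and 2, 8, 6 and 4 borders fell inside it. Class I members were PAD for 79.5% in ESCs and 64.6% in NPCs, and 96.9% in ACs and 70.1% in thymus, and class II members for 95.4%, 92.7%, 81.7% and 74.3% in the same cell types. Class I receptors thus had the lower share in ESCs, NPCs and thymus and the higher share in ACs, but 125 of the 127 class I genes are in this 1 cluster, so receptor class and position cannot be told apart. The remaining pair, Olfr503 and Olfr504, lies in cluster 7.

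In ESCs a single non-PAD of 461 kb with 70 fragment ends (110533588 to 110994544) interrupted the class I cluster. It held 26 receptor genes, from Olfr605 to Olfr67, which were non-PAD in NPCs also and PAD in ACs and thymus. The NPC non-PAD around them was larger, 734 kb with 39 receptor genes from Olfr593 to Olfr631. In ACs the same 26 genes lay in a PAD of 1981 kb that began before Olfr543, and in thymus in a PAD of 1584 kb from Olfr570 to Olfr649. Olfr67, Olfr68 and Olfr69, which flank the beta globin genes, are among the 26, and their midpoints lay 56.5, 68.2 and 76.6 kb from the nearer ESC border. Olfr619 and Olfr620 lay deepest inside, 219 and 223 kb from the nearest border of the calls that changed.

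The other end of this ESC non-PAD lay within the beta globin locus, between the embryonic genes Hbb-bh1 and Hbb-y. The 5 beta globin genes, which encode the beta chains of hemoglobin, sit between Olfr67 and Olfr66. The adult genes Hbb-b2 and Hbb-b1 had the calls of the 26 receptor genes, non-PAD in ESCs and NPCs and PAD in ACs and thymus. Hbb-bh2 and Hbb-bh1 were PAD in thymus and non-PAD in the other populations, and Hbb-y was PAD in ESCs and thymus. None of the 5 was PAD in NPCs and all 5 were in thymus, in the same PAD as the receptor genes around them. A second border of the locus lay in ACs, between Hbb-b1 and Hbb-bh2, and opened an AC non-PAD of 94.0 kb with 12 fragment ends that held Olfr66, Olfr65 and 2 more receptor genes. These 4 were PAD in ESCs and thymus and non-PAD in NPCs and ACs.

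**Figure D3:**
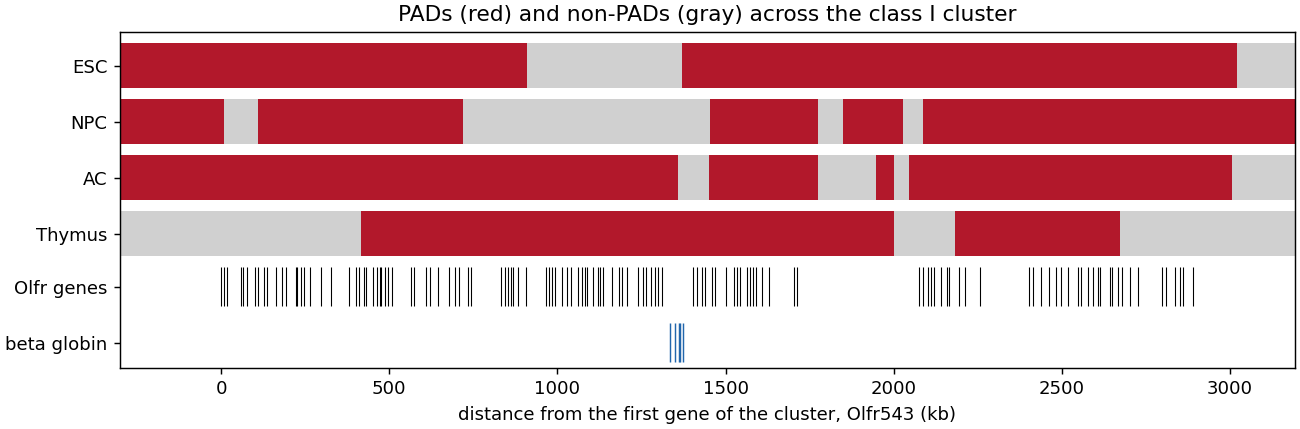
PADs (red) and non-PADs (gray) in the 4 cell types across the class I cluster, against the distance in kb from its first gene, with 300 kb on either side; ticks mark the starts of the 129 receptor genes (black) and of the 5 beta globin genes (blue). The ESC and NPC gaps in the middle of the cluster are red in thymus. In ACs they are red up to the globin locus, where a gray stretch with 4 receptor genes begins. The first 23 receptor genes are gray in thymus, 6 of them in NPCs also.

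The fragment ends on both sides of a border show how closely the change of call could be placed. A fragment end is the sequence between an MfeI site and the next NlaIII site, and reads begin at the MfeI site. Of the listed intervals 97.8% started with the site of either enzyme in mm9, and 8891 with neither. Sequence could be read for 803 of the 824 fragment ends in the clusters. Some borders of the class I cluster fell on a single MfeI site, so that the ends running left and right from it had opposite calls, among them the AC border in the globin locus and the thymus border between Olfr569 and Olfr570. The ESC border between Olfr603 and Olfr605 lay in a stretch of 28.3 kb with no listed end, and is known only to that width. The first 60 bases of these ends are given from the mm9 sequence of Chromosome 7, 5′ to 3′ from the MfeI site, which is in capitals; they lie at chr7:110983461-110983520 (minus strand), chr7:110983515-110983574 (plus), chr7:110041904-110041963 (minus), chr7:110041958-110042017 (plus), chr7:110519501-110519560 (minus) and chr7:110547715-110547774 (plus).
AC border in the globin locus, PAD end: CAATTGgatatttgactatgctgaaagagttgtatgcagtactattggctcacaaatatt
AC border in the globin locus, non-PAD end: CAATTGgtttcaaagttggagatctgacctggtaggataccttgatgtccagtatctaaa
Thymus border, non-PAD end on the side of Olfr569: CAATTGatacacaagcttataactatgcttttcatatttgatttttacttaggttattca
Thymus border, PAD end on the side of Olfr570: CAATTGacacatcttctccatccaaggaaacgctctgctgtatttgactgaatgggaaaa
ESC border, PAD end on the side of Olfr603: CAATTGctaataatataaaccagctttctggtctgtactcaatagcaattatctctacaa
ESC border, non-PAD end on the side of Olfr605: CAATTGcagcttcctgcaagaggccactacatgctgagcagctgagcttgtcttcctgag

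Receptor genes arose by repeated duplication, so the sequences were checked for copies, over the first 36 bases. For each of these 6 ends, those bases were found at 1 MfeI fragment end of the genome. Over the 8 clusters, 0 of the 803 ends that could be read shared their first 36 bases with another listed end, as did 0 of 18593 on the rest of Chromosome 7. The list thus appears to hold unique ends only, so a count within it cannot show copies. When ends that the file does not list were added, 6 (0.747%) in the clusters and 48 (0.258%) on the rest of the chromosome had the same 36 bases as another end. The clusters held 232 MfeI sites per Mb with 0.629 listed ends per site, against 187 sites per Mb and 0.744 ends per site on the rest of Chromosome 7. Their GC content was 39.4%, against 43.2%. The part of these differences in the calls was not tested.

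In thymus the start of the class I cluster was non-PAD. The 23 genes from Olfr543 to Olfr569 lay in a thymus non-PAD of 7.34 Mb that also held Olfr520 and Olfr521 of cluster 4. They include Olfr78 and Olfr558, receptors for short-chain fatty acids that are also expressed outside the nose, and Olfr544, a receptor for azelaic acid. Olfr78 and Olfr558 were PAD in ESCs, NPCs and ACs and lay 143 and 186 kb inside the thymus non-PAD. Olfr544 and its neighbor Olfr545 were non-PAD in thymus and in NPCs, in an NPC non-PAD of 103 kb with 17 fragment ends and 6 receptor genes. Olfr544 lay 1.55 kb from a border there, so its NPC call rests on the placement of 1 border, whereas it lay 407 kb inside the thymus non-PAD.

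From Olfr570 onward the thymus calls of the class I cluster alternated. The PAD of 1584 kb held 70 receptor genes up to Olfr649, a non-PAD of 183 kb with only 12 fragment ends held the 8 genes from Olfr651 to Olfr658, a PAD of 489 kb held the 19 genes from Olfr659 to Olfr683, and a non-PAD of 571 kb held the last 9, from Olfr684 to Olfr692. Olfr691 and Olfr692 belong to this last run and were PAD in the other populations, 188 and 219 kb from the thymus border. Olfr651 was non-PAD in NPCs also, in a domain of 58.6 kb that rests on 3 fragment ends. AC and thymus PADs shared a border at 111625655, and AC and NPC PADs shared one at 111400085, both in the stretch between Olfr649 and Olfr651.

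That stretch is filled by Trim genes, which encode ubiquitin ligases with roles in antiviral defense. The class I cluster holds 13 annotated Trim entries, 2 of them named Trim30b, of which 13 were PAD in ESCs and 8 in NPCs, and 4 in ACs and 10 in thymus. Among all 28 other genes within the class I cluster, 23 were PAD in ESCs and 16 in NPCs, and 16 in ACs and 25 in thymus. In ACs, where 125 of 129 receptor genes were PAD, 4 of the 13 Trim genes and 2 of the 5 globin genes between them were. The non-PAD calls of the Trim genes rest on few fragment ends. Most of those in ACs lay in a non-PAD with 12 ends (111400085 to 111571727), and Trim30d in one with 3. In NPCs, Trim34a, Trim5, Trim12a and Trim34b lay in a non-PAD with 3 ends (111400085 to 111475676). Of the deubiquitinase genes, Dub1, Dub1a and Dub3 lay in PADs in every cell type, Dub2a was non-PAD in NPCs alone and Usp17l5 was non-PAD in ESCs and NPCs.

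Cluster 7 (Olfr467 to Olfr519, 114958094 to 116037934) holds 40 members over 1080 kb and no other protein-coding gene. All 40 were PAD in ESCs, NPCs and ACs, and 35 were in thymus. The thymus PAD measured 987 kb with 150 fragment ends, from 115047718 to 116035157. With borders set midway between ends, both lay inside the cluster, between Olfr472 and Olfr473 and between Olfr518 and Olfr519. The second is known only to a stretch of 22.7 kb with no listed end. The cluster ends within that stretch, so this border may lie past Olfr519. On the far side it met a thymus non-PAD of 27.6 Mb with 4519 fragment ends. Of the 12 genes within 500 kb of the cluster, 1 was PAD in thymus, against 12 in ESCs, 12 in NPCs and 9 in ACs. The receptor genes next to the borders on their non-PAD sides were Olfr472, at 1.04 kb, and Olfr519, at 2.30 kb.

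Cluster 8, toward the telomere (Olfr522 to Olfr541, 147347838 to 147891166), had the opposite thymus call. Its 19 members are class II receptors. All 19 were PAD in ESCs and in NPCs, 15 in ACs and 0 in thymus, where they lay in a non-PAD of 8.39 Mb up to 3784 kb from a border. The 4 non-PAD genes of ACs, Olfr525 to Olfr530, lay in a domain of 92.0 kb with 20 fragment ends. Of 43 other genes within 500 kb, 0 were PAD in thymus, against 41 in ESCs, 35 in NPCs and 15 in ACs, so the receptor genes had the thymus call of their neighbors there. Cd163l1 and 5830411N06Rik, the 2 other genes inside the cluster, were PAD in the cultured populations and non-PAD in thymus.

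**Figure D4:**
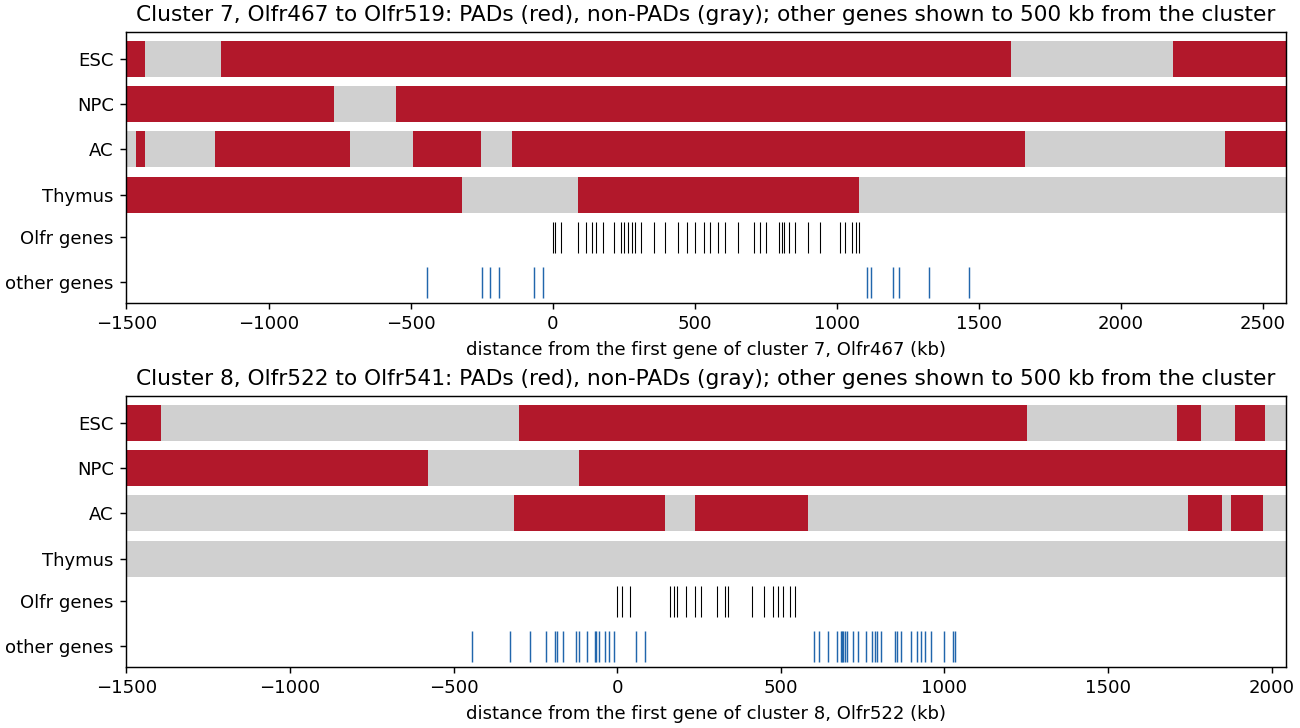
PADs (red) and non-PADs (gray) around clusters 7 (upper panel) and 8 (lower panel), against the distance in kb from the first gene of each, with ticks at the starts of receptor genes (black) and of other genes within 500 kb (blue). In thymus the PAD of 987 kb covers 35 of the 40 receptor genes of cluster 7, while cluster 8 holds no thymus PAD. As drawn, midway between ends, both PAD borders lie inside cluster 7, but the right one may lie past its last gene.

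Cluster 6 (Olfr693 to Olfr716, 25 class II genes) was PAD throughout in ESCs and thymus, for 21 genes in NPCs and for 23 in ACs. It holds 3 receptors much used in studies of receptor choice. Olfr2, the mouse counterpart of the rat I7 receptor for octanal, and Olfr6 were PAD in all 4 cell types. Olfr17, known as P2, was PAD in ESCs, ACs and thymus and non-PAD in NPCs, where it lay 53.3 kb inside a non-PAD of 220 kb that also held Olfr714, Olfr715 and Olfr716. In ACs Olfr17 was PAD but 4.35 kb from the border, beyond which Olfr715 and Olfr716 were non-PAD.

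The fragment ends nearest to 3 of these known receptors are given in the same way, at chr7:114142336-114142395 for Olfr2, chr7:114243569-114243628 for Olfr17 and chr7:109901991-109902050 for Olfr78 (mm9, plus strand). The end of Olfr17 is the last PAD end before the AC border, and the calls printed with each name are in the order ESC, NPC, AC and thymus.
Olfr2 (PAD, PAD, PAD, PAD): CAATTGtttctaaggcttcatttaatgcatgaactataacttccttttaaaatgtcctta
Olfr17 (PAD, non-PAD, PAD, PAD): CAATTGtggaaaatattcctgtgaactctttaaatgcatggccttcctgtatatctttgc
Olfr78 (PAD, PAD, PAD, non-PAD): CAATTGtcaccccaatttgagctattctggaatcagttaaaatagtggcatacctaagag

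Cluster 1 (Olfr1344 to Olfr1350, 8 class II genes over 131 kb) was PAD in all 4 cell types, as were all 18 other genes within 500 kb. It lies toward the centromere, in PADs of 13.7 Mb in ESCs, 3.26 Mb in NPCs, 11.3 Mb in ACs and 8.27 Mb in thymus. Olfr1344 was the member farthest from a border in ESCs, at 10363 kb. This is the distance to the right border, because that PAD begins at the first listed fragment end of the chromosome and has no left border. Cluster 2, with Olfr291 and Olfr290 alone, was PAD only in ACs, in a domain of 314 kb with 42 fragment ends, and was the one cluster with no PAD call in ESCs.

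Cluster 3 (Olfr310 to Olfr292, 15 class II genes over 427 kb) had the lowest AC share of the clusters that hold at least 5 genes. PADs held 12 of its genes in ESCs and 13 in NPCs, and 3 in ACs and 15 in thymus. From Olfr307 to Olfr295, 9 genes were non-PAD in ACs alone, in a non-PAD of 640 kb. The last 3 genes were non-PAD in ESCs and ACs, and of them Olfr294 was PAD in NPCs. Olfr294 lay 19.4 kb from the ESC border. The genes around clusters 2 and 3 include Vmn2r vomeronasal receptors, which detect pheromones. Of 13 Vmn genes within 500 kb of any cluster, 9 were PAD in ESCs and 6 in NPCs, and 10 in ACs and 9 in thymus. Cluster 4, with Olfr520 and Olfr521, was PAD in ESCs and NPCs and non-PAD in ACs and thymus, and 0 of its 18 neighbors were PAD in thymus.

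**Figure D5:**
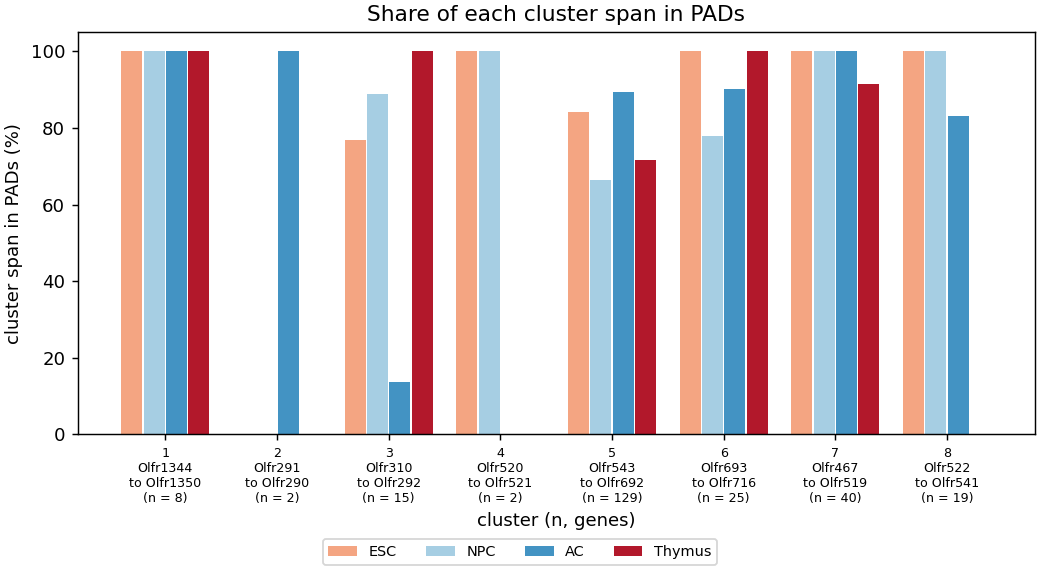
Percent of the span of each cluster that lay in PADs (y axis, from the start of the first to the end of the last gene) in the 4 cell types, with the number of genes under each cluster. Clusters 2, 4 and 8 have no thymus bar because 0% of their span lay in thymus PADs, and cluster 3 is at 13.7% in ACs.

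Counted once per member, the PADs that held the members were mostly large. The median member in a PAD lay in a PAD of 2779 kb in ESCs, 2477 kb in NPCs, 1808 kb in ACs and 1584 kb in thymus. PADs with many members weigh most in these medians. Counted once per PAD over the genome, medians were 476 kb in ESCs, 833 kb in NPCs, 519 kb in ACs and 638 kb in thymus. These are unlike measures. The median distance of PAD members to a border was 484 kb in ESCs, 322 kb in NPCs, 349 kb in ACs and 449 kb in thymus. Members in non-PADs lay closer to a border, with medians of 129 kb in ESCs, 157 kb in NPCs, 53.0 kb in ACs and 243 kb in thymus, and in ESCs their 31 genes occupied 3 domains of at most 589 kb. In thymus the 68 non-PAD members lay in 7 domains of 183 to 27563 kb. The shortest distances belonged to Olfr531 in ACs (0.474 kb), Olfr551 in NPCs (1.04 kb), Olfr472 in thymus (1.04 kb) and Olfr603 in ESCs (1.54 kb), and the calls of these genes turn on where a border is set.

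The surroundings of the clusters were set beside the members. In ESCs 87.1% of the members were PAD, against 86.5% of the 141 other genes within 500 kb beside a cluster, and in NPCs 77.5%, against 87.2%. In ACs 90.0% of the members were PAD, against 51.1% of these flanking genes, and in thymus 71.7%, against 28.4%. Pooled over clusters, the flanks thus had nearly the share of the members in ESCs, a larger one in NPCs and smaller ones in ACs and thymus. Clusters weigh unequally here, as cluster 8 gave 43 of the 141 flanking genes but 19 members. In thymus, members and flanks had equal shares in clusters 1, 3, 4 and 8. The thymus gap was widest in cluster 5 (89 of 129 members, 6 of 29 flanking genes) and cluster 7 (35 of 40, 1 of 12). In ACs the flanks had the larger share in clusters 3 and 4. Of the 31 other genes inside clusters, 26 were PAD in ESCs and 18 in NPCs, and 18 in ACs and 26 in thymus.

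By sequence family, related receptors did not always share a pattern. The members fell into 64 families by their RefSeq names, 44 of them with at least 2 members. In 21 of the 44 all members had the same calls over the 4 cell types, and in 23 they had several patterns. The 26 genes that were non-PAD in ESCs and NPCs belonged to 12 families, and 3 of these families had members with another pattern elsewhere. Relatives are often neighbors, so shared family and shared domain cannot be told apart.

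RefSeq promoter windows (250 bases before to 50 after the annotated start, GRCm38.p6) were matched for 203 of the 240 genes. For 154 (75.9%) of them the annotated start is the start codon, against 5.83% of all 32851 windows, so most of these windows lie upstream of the coding sequence and need not hold the promoter. The homeodomain core TAATTA, of the kind bound by Lhx2 and Emx2, reads the same on both strands and stood in 28 windows (13.8%), against 20.0% of the 741 windows of other Olfr genes and 5.29% of all windows. CCCNNGGG, a core of the kind bound by Ebf factors, was searched on both strands and stood in 9 (4.43%), against 2.70% and 13.7%. The mean GC content of the windows was 37.5% for the members, against 35.7% for other Olfr genes and 53.8% for all windows, and its part in these shares was not tested. TAATTA was in 14.8% of the windows of members with different calls and in 12.6% of those of members PAD in all 4 cell types.

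Windows of 3 members in or beside a run of genes with a changed call, and whose annotated start is not the start codon, are shown with their motifs in capitals. Each of the 3 holds a motif, whereas most member windows hold none, so they are not typical. Olfr605 is the first gene of the run that was non-PAD in ESCs and NPCs (chr7:103443101-103443400, minus strand), Olfr570, PAD in all 4 cell types, the first gene past the run that was non-PAD in thymus (chr7:102900092-102900391, plus strand) and Olfr536 a gene of cluster 8, non-PAD in thymus (chr7:140507269-140507568, minus strand). The capitals are TAATTA in the windows of Olfr605 and Olfr570 and CCCNNGGG in that of Olfr536.
Olfr605: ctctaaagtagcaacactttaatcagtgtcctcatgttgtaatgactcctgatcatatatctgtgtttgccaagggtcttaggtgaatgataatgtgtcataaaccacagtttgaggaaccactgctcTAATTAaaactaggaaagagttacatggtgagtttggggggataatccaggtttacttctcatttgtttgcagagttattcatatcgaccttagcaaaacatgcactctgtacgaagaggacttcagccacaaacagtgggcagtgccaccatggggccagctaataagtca
Olfr570: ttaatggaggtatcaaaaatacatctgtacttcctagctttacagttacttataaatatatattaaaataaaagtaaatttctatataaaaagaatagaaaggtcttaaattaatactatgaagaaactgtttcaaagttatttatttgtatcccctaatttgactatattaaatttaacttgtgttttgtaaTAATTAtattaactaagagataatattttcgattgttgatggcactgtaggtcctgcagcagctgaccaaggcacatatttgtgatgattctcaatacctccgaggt
Olfr536: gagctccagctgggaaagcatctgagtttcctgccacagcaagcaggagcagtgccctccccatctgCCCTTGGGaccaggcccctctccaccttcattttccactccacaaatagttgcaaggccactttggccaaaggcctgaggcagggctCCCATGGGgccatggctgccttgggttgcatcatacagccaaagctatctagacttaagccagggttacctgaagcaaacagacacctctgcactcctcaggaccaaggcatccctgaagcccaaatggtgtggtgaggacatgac

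The genes that work with the receptors were PAD less often than the members in ESCs, ACs and thymus. In NPCs their share was near that of the members, 80.0% against 77.5%. Of 30 genes of the olfactory pathway, on many chromosomes, 10 (33.3%) were PAD in ESCs and 24 (80.0%) in NPCs, and 8 (26.7%) in ACs and 4 (13.3%) in thymus, below the shares of all genes in ESCs, ACs and thymus and above it in NPCs. Of the 11 signaling genes, 2 were PAD in ESCs and 1, the channel gene Cnga2, was PAD in all 4 cell types. Of 14 genes for receptor choice and chromatin, 6 were PAD in ESCs and 1 in thymus, the homeodomain factor Lhx2, which was PAD in all 4. Reep1, which helps membrane proteins reach the cell surface, was the third gene PAD in all 4, and 5 genes of the list were non-PAD in all 4.

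Of this list, 4 genes lie on Chromosome 7. Cnga4, a subunit of the olfactory cyclic nucleotide-gated channel, sits beside the class I cluster, and like the last 9 receptor genes there it was PAD in ESCs, NPCs and ACs and non-PAD in thymus. Ebf3, a transcription factor of olfactory neurons, had the same calls. Omp, the olfactory marker protein, was PAD in NPCs only, and Atf5, a factor of the response that follows receptor expression, was non-PAD in all 4 cell types.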

How the data were processed

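For 13 read sets, the authors mapped sat4C reads to sequences beside restriction sites of mm9, with the Y chromosome left out, by an aligner not named in the sources used here. The authors sorted reads per end into classes, fitted a 2-state hidden semi-Markov model to each replicate, and joined the calls of replicates by majority vote. Ties were settled by a further replicate made from the pooled reads, which in NPCs and ACs, with 2 replicates each, applies wherever the replicates differed. The deposited values are those consensus calls, the word PAD or nPAD in 4 columns, with 0 columns per replicate, so depth and replicate error were not analysed here.

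Each gene took the call of the nearest fragment end. Domains were unions of consecutive ends with the same call, with borders midway between ends of different calls. Of 22380 protein-coding genes, 51 lay outside the calls. Members lay 14 to 31478 bp from their end, with a median of 2527 bp. Fragment ends were read from NCBIM37 (mm9), receptor classes and promoter windows from RefSeq (GRCm38.p6). Python 3.11.15, numpy 2.4.6, pandas 2.3.3 and matplotlib 3.10.9 were used, and placement and borders were tested on simulated calls.

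Members, lists and alternatives were chosen with earlier results of these data known. Named genes were the first and last of each cluster, all genes of small clusters, a list of known receptors, up to 15 members that changed farthest from a border, those nearest to and farthest from borders, pathway and Hbb genes of Chromosome 7, and those with a printed sequence. Trim, Dub and Vmn genes, the genes inside cluster 8 and the genes at block edges were named after their values were seen. The receptor families and the clusters that hold the changed genes were counted after the data were seen.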

Additional observations from a re-analysis of the deposited data

How the results depend on the processing

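Counts of members were recomputed with genes placed by the transcription start site or by the interval that holds the midpoint, by any or full overlap with PADs, with runs under 5 fragment ends absorbed, without pseudogene symbols, with all Olfr entries, without intervals over 100 kb, without members over 10 kb from an end, and with clusters split at 250 kb or 1 Mb. The interval placement was chosen after the data were seen. Of 214 values, 200 stayed within 1.5 times the main one. Transcripts of members had a median length of 966 bp and 2 crossed a border, so placement could change few calls. Of the 14 values that moved, 11 came from 1 vote per cluster and 3 from leaving out members near borders. Without members under 50 kb from a border, PAD in NPCs and non-PAD in ESCs held 0 of 201 members, the reverse change 7, and non-PAD in ACs with PAD in ESCs 8 of 208. With 1 vote for each of the 6 clusters of at least 5 genes, 0 clusters were PAD in NPCs and non-PAD in ESCs, 0 the reverse, 0 PAD in ACs and non-PAD in NPCs, 0 PAD in ACs and non-PAD in ESCs, and 0 PAD in thymus and non-PAD in ESCs or NPCs. By the same vote 1 cluster (16.7%) was non-PAD in ACs and PAD in NPCs, 1 non-PAD in ACs and PAD in ESCs, 1 non-PAD in thymus and PAD in ESCs, 1 PAD in thymus and non-PAD in ACs, and 1 non-PAD in thymus and PAD in ACs. Both settings use fewer units. No paired analysis was possible because the file holds 1 consensus call per cell type, and no replicate could be left out for the same reason.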
